A study of Mus musculus with 4 samples.

Results

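Macrophages of the lung carry receptors that restrain them on contact with other cells, and the transcripts of 2 such systems were examined here in alveolar macrophages (AMs) of mice with and without a 4T1 breast tumor. The members were 7 genes, Cd200, Cd200r1, Cd200r4, Cd47, Sirpa, Ptpn6 and Ptpn11, taken by symbol from a table of 54532 genes, and each symbol matched 1 row. The control group held 2 bulk RNA-seq libraries of AMs from tumor-free mice. The tumor group held 2 libraries of AMs from mice that had carried a primary 4T1 tumor, a mouse mammary carcinoma line that spreads to the lung, for 2 weeks. All mice were female and wild-type (WT), the study's methods give a BALB/c background and tumor cells placed in the mammary fat pad, and an age range is stated there for the WT mice of the study as a whole but not in the labels of these libraries. The source is labelled lung and the sequencing methods describe the cells as purified AMs without naming a gate. The study describes the isolation of AMs for staining and for RNA-seq together, and for the staining it names CD45+ CD11b- CD11c+ SiglecF+ cells. That gate would leave out CD45-negative cells such as endothelium and hepatocytes, most lymphocytes and CD11b+ granulocytes. The labels do not say whether a library is 1 mouse or a pool. P-values therefore measure the spread between these libraries, which may be technical.

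CD200 is a surface glycoprotein of endothelial cells, lymphocytes and other cells, and its receptor CD200R1 on myeloid cells passes an inhibitory signal through the adaptors DOK1 and DOK2 and the RAS regulator RASA1. CD47 is present on nearly all cells and binds SIRPα, a receptor of macrophages whose tyrosine motifs recruit the phosphatases SHP-1 (Ptpn6) and SHP-2 (Ptpn11) and which holds back phagocytosis. Both receptors have activating relatives that lack these inhibitory tails and signal through the adaptor DAP12 (Tyrobp), among them CD200R4, CD200R3 and the SIRPβ1 proteins. In the airspace, AMs carry high levels of CD200R and SIRPα, and the surfactant proteins SP-A and SP-D also bind SIRPα.

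Library totals ranged from 16167147 to 19205737 counts, and levels are given as CPM, the counts relative to a library size scaled by TMM, which lessens the pull of a few abundant genes. The lowest level read as expression, 3 counts, corresponded to 0.153 to 0.190 CPM and covers counting error only. The AM label was checked on 14 AM genes, all of which were present in all libraries, with a summed level of 16406 to 16551 CPM in the control and 12549 to 12690.5 CPM in the tumor libraries. Of these genes 12 were lower in tumor libraries, Ear1 was higher and Ear2 was not called, with a median log2 fold change of -0.46 against 0.02 over all genes tested. Chil3 and Mrc1 contributed most to the sum, at 5089 and 3443 CPM in control replicate 1. Markers of several other cell types, though not of all, were higher in tumor libraries. The summed level of 5 eosinophil genes was 0.480 to 0.506 CPM in the control and 2201 to 2221 CPM in the tumor libraries, that of 10 neutrophil genes went from 9.86 to 9.93 CPM to between 3848 and 3900 CPM, and that of 6 basophil and mast cell genes went from 2.02 to 2.29 CPM to between 522 and 529 CPM. All 21 of these genes and all 10 hepatocyte genes, at 4.74 to 5.76 CPM summed in the control and 833 to 846 CPM in the tumor libraries, were higher with an adjusted p under 0.05. Most of the basophil and mast cell sum was Hdc, at 2.02 and 1.71 CPM in the control and 467 and 478.5 CPM in the tumor libraries. Fibroblast genes were higher in 4 of 4 cases, summed at 1.08 to 1.12 CPM in the control and 6.11 to 7.02 CPM in the tumor libraries, and of 7 dendritic cell genes 4 were higher and 1 lower, summed at 12.3 to 12.7 CPM and 42.6 to 43.7 CPM. Not all lists rose. Of 5 tested alveolar type 2 genes 3 were lower and none was higher, and their list summed to 220 CPM in both control and 190.1 to 195 CPM in the tumor libraries, most of which was Abca3 at 214 and 212 CPM against 184 and 188 CPM. Of 8 monocyte and interstitial macrophage genes 2 were higher and 5 lower, with a median log2 fold change of -0.53. Epx and Mcpt8, which define eosinophils and basophils, had at most 1 count in a control library. The part of such cells in the values below was not tested, and in bulk RNA fewer cells of a type and less RNA per cell cannot be told apart.

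Of the 7 members, 4 were lower and 1 was higher in tumor libraries by edgeR's quasi-likelihood test at a Benjamini-Hochberg adjusted p under 0.05, and 2 did not pass. Over all 14256 genes tested, 53.8% passed, 24.8% as lower and 29.0% as higher, so a call was common. The median log2 fold change of the members was -0.18. Cd200 was the member that differed most, as only 9.77% of tested genes had a larger absolute log2 fold change. The corresponding share was 43.1% for Sirpa, 43.8% for Ptpn11, 67.9% for Cd47, 86.0% for Ptpn6, 92.6% for Cd200r1 and 97.9% for Cd200r4.

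**Figure D1:**
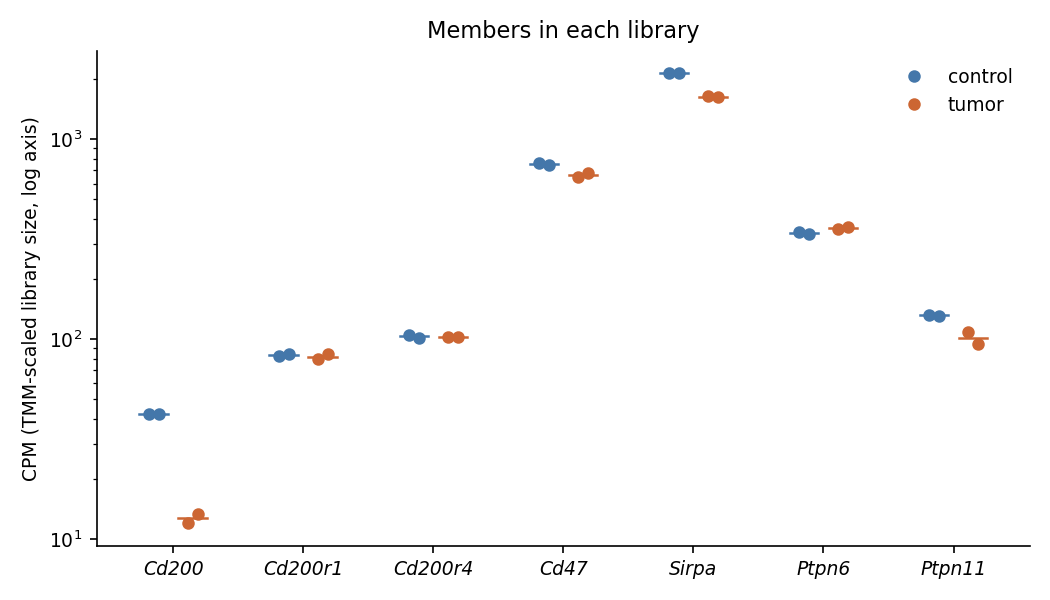
CPM of the 7 members on a log axis, with 1 point per library (control blue, tumor orange) and a bar at the mean of each pair. Cd200 sits at 42.0 to 42.4 CPM in the control and 12.0 to 13.3 CPM in the tumor libraries, whereas the points of Cd200r1 and Cd200r4 overlap between groups.

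The ligands are described first. Cd200 (ENSMUSG00000022661) occupies bases 45382135 to 45409053 of chromosome 16 (minus strand) in the files' coordinates, which match build GRCm38. It had 796 and 664 counts in the control and 208 and 262 in the tumor libraries, or 42.4 and 42.0 CPM against 12.0 and 13.3 CPM. Both tumor libraries lay far below both controls. The group means were 42.2 ± 0.278 and 12.7 ± 0.947 CPM (SD, n = 2 each), a 3.32-fold lower level. On the log2 scale the difference was -1.73 ± 0.0918 (SE), at an adjusted p of 1.74e-15 by edgeR. This fall kept its direction and its call under all 14 processing alternatives, between -1.82 and -1.35.

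Several of the cell types that carry CD200 were represented by markers. The summed level of 6 endothelial genes was 115 to 117 CPM in the control and 105 CPM in both tumor libraries, and Vwf made up most of it. Of 5 tested endothelial genes 2, Pecam1 and Cldn5, were higher and 1, Vwf, was lower. Cdh5 and Kdr did not pass and Tek was not tested. Pecam1, which leukocytes and platelets also express, went from 42 and 32 counts to 349 and 343. Of 6 B cell genes 5 were higher, with a sum of 6.61 to 6.90 CPM in the control and 13.2 to 14.9 CPM in the tumor libraries. Of 5 tested T cell genes 3 were higher and none was lower, and their list summed to 3.89 to 4.18 CPM and 14.5 to 15.5 CPM. Pax5, Cd3e and Lck did not pass and Cd8a was not tested. The part of any of these cells in the level of Cd200 was not tested.

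Cd47 (ENSMUSG00000055447) lies on the plus strand of the same chromosome, from 49800533 to 49915010, 4391.5 kb beyond Cd200. Its level was 758 and 746 CPM in the control against 648 and 678 CPM in the tumor libraries. The groups did not overlap, but the step between them was small. Cd47 fell by 11.8%, with a log2 fold change of -0.18 ± 0.0240 (SE), a 95% interval of -0.23 to -0.13 and an edgeR adjusted p of 2.68e-07. When libraries were scaled on the AM genes instead of by TMM, Cd47 was higher by 0.20 (adjusted p = 1.25e-07), so the direction of this change depends on the scaling.

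Because the series asks about the aryl hydrocarbon receptor (AHR), a transcription factor that binds the core GCGTG, the promoters of both ligands are shown. The RefSeq sequences are of build GRCm38.p6 and run 5′ to 3′ on the strand of the gene, with 250 bases before the annotated start and the first 30 transcribed bases. Capitals mark the core on either strand (GCGTG, or CACGC where it lies on the opposite one). The Cd200 window is chr16:45409024-45409303 on the minus strand, and the Cd47 window is chr16:49855404-49855683 on the plus strand.
Cd200: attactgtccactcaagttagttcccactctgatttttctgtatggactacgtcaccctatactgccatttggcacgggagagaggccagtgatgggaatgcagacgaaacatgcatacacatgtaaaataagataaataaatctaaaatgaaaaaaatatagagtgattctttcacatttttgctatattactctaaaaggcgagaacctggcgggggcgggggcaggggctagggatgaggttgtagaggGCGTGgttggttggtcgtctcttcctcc
Cd47: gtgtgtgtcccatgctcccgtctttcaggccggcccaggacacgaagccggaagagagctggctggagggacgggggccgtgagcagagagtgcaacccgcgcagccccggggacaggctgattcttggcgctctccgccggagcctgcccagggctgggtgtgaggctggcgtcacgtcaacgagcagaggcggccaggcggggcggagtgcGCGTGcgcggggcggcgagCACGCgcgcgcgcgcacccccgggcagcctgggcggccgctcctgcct
In Cd200 the core was found once, beginning at base 3 of the transcript. Cd47 had 2 matches that did not overlap, beginning 37 bases before the start on the gene's strand and 18 bases before it on the opposite strand. This RefSeq start of Cd47, at 49855654, lies inside the span of the gene given above. From another RefSeq start of Cd47, at 49855661, the same matches began 44 and 25 bases before it. Of the 5 members with a promoter in the table, 3 held the core within 300 bases, Ptpn11 being the third, against 32.4% of all 32817 promoters. The sequence GAGGAAGT, a core of the macrophage factor PU.1, was found on neither strand in any of the 5 and in 3.20% of all promoters. A match describes letters only and no binding was measured in these libraries.

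Among the receptors, Cd200r1, the inhibitory receptor for CD200, differed little between groups. Its gene (ENSMUSG00000022667) lies at 44765736 to 44794978 on the plus strand of chromosome 16. The level was 82.8 and 84.7 CPM in the control and 79.1 and 83.9 CPM in the tumor libraries, so the groups overlapped. The log2 difference of -0.04 ± 0.0504 (SE) did not pass (edgeR, adjusted p = 0.562), and its 95% interval ran from -0.14 to 0.07, that is, between 0.907-fold and 1.05-fold. Cd200r4 (ENSMUSG00000062082, 44811733 to 44839150), an activating relative placed 16.8 kb further along, was at 105 and 101 CPM in the control and 103 and 102 CPM in the tumor libraries. Its log2 fold change was -0.01 ± 0.0446 (SE), with an adjusted p of 0.860 and an interval of -0.10 to 0.08. Both signs depended on the library size: with plain totals the values were 0.0290 and 0.0551, and with scaling on the AM genes they were 0.35 and 0.37, both called (adjusted p = 1.22e-06 and 8.00e-08).

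The other receptors of this cluster were scarce in the controls. Cd200r3, an activating receptor known from basophils and mast cells, had 0 and 5 counts in the control and 133 and 95 in the tumor libraries. Both tumor libraries stood apart, and the level relative to the library size was 42.6-fold higher, with a 95% counting interval of 18.0 to 133-fold that covers counting error only. All 5 control counts came from control replicate 2, so the size of this ratio rests on that library. The fitted log2 fold change was 5.36 with all libraries and 4.26 without control replicate 1, while without control replicate 2 the remaining control was at 0 and the fitted value of 9.85 depends on the prior count. Its edgeR adjusted p was 1.11e-10, and it rose alongside all 6 basophil and mast cell markers given above. Cd200r2 had 4 and 2 counts in the control and 4 and 8 in the tumor libraries, too few to be tested.

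Reads of these related genes could be shared by the counting. In GENCODE transcripts, 1.16% of the 50-base windows of Cd200r1 and 4.94% of those of Cd200r4 occurred in another gene, and at 100 bases the shares were 0% and 0.538%. The overlap between Cd200r1 and Cd200r4 was therefore limited to short stretches.

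Sirpa, the receptor for CD47, was the most abundant member. It lies at 129592835 to 129632228 on the plus strand of chromosome 2 (ENSMUSG00000037902). It had 2141 and 2136 CPM in the control and 1640.4 and 1628 CPM in the tumor libraries, 2 tight pairs without overlap. Sirpa fell by 23.6%, a log2 difference of -0.39 ± 0.0172 (SE), at an adjusted p of 3.00e-17 by edgeR. Scaling on the AM genes left a log2 fold change of -0.00351 (adjusted p = 0.887). No 50-base window of its transcripts was found in another gene.

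The 3 SIRPβ1 genes on chromosome 3, activating relatives of Sirpa, went the other way. Sirpb1a was at 25.8 and 27.1 CPM in the control and 43.5 and 42.3 CPM in the tumor libraries, a log2 fold change of 0.70 ± 0.0778 (SE, edgeR adjusted p = 1.28e-08). Sirpb1b and Sirpb1c rose by 0.80 and 0.51 on the log2 scale (adjusted p = 0.00415 and 0.00432), but without control replicate 1 these values were 0.49 and 0.20 and no longer passed (adjusted p = 0.154 and 0.310). Between 40.4% and 58.0% of the 50-base windows of these genes occurred in another gene, mostly in one another, so their counts can be split and are uncertain as single genes.

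The phosphatases that SIRPα recruits differed from each other. Ptpn11 (ENSMUSG00000043733, minus strand of chromosome 5, 121130533 to 121191397), which encodes SHP-2, was at 132 and 131 CPM in the control and 108 and 95.03 CPM in the tumor libraries. The tumor pair was spread more widely than the control pair but lay below it. Its log2 difference of -0.38 ± 0.0486 (SE) passed (edgeR, adjusted p = 1.50e-07), and it was 0.00533 with scaling on the AM genes (adjusted p = 0.932). Ptpn6 (ENSMUSG00000004266, minus strand of chromosome 6, 124720707 to 124738714), which encodes SHP-1, was at 345 and 337 CPM in the control and 355 and 363 CPM in the tumor libraries. Its log2 fold change of 0.07 ± 0.0280 (SE) passed narrowly (adjusted p = 0.0273). It did not pass without control replicate 1 (0.08, adjusted p = 0.0520), without control replicate 2 (0.04, adjusted p = 0.425) or without tumor replicate 2 (0.05, adjusted p = 0.198), nor by the Wald test of DESeq2 (0.07, adjusted p = 0.134) or with no filter on low counts (0.06, adjusted p = 0.179), and its 95% interval under TMM was 0.02 to 0.13. Other library sizes gave larger values, 0.14 with plain totals (adjusted p = 0.00011) and 0.46 with scaling on the AM genes (adjusted p = 3.48e-13). The antisense gene Gm20531 overlaps Ptpn6 and had 7 to 21 counts, and Gm42930 overlaps Ptpn11 with 0 to 4 counts.

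To set genes beside one another, counts were also divided by gene length (FPKM). The order over the 4 libraries was Sirpa, Ptpn6, Cd47, Cd200r4, Cd200r1, Ptpn11 and Cd200, and it was the same with the longest GENCODE transcript as the length. Sirpa reached 436 ± 0.738 FPKM in the control and 333 ± 1.83 FPKM in the tumor group (SD, n = 2 each), rank 93 among the tested genes. In the control group Ptpn6 and Cd47, at 122 ± 2.07 and 120 ± 1.42 FPKM, did not differ beyond their spread. In the tumor group Ptpn6 was at 128 ± 1.86 and Cd47 at 106 ± 3.33 FPKM, which did not overlap. The other neighbours in the order were separated in both groups, with 25.0 ± 0.395 FPKM for Cd200r1, 17.6 ± 0.114 FPKM for Ptpn11 and 12.7 ± 0.0837 FPKM for Cd200 in the control.

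Ratios of 2 genes within a library do not depend on how libraries are scaled to each other. Cd200r1 over Cd200 was 1.94 and 2.00 in the control and 6.54 and 6.24 in the tumor libraries. The ratio of receptor to ligand transcript was thus 3.25-fold higher with tumor, while Cd200r4 over Cd200r1 stayed within 1.96 to 2.09 in the control and 2.00 to 2.13 in the tumor libraries, which overlapped. Sirpa over Cd47 was 3.61 and 3.66 in the control and 3.23 and 3.07 in the tumor libraries. The SIRPβ1 genes together made up 0.0331 and 0.0384 of the Sirpa level in the control and 0.0747 and 0.0737 in the tumor libraries, a 2.08-fold higher ratio. Ptpn6 over Ptpn11 went from 6.97 and 6.86 to 8.79 and 10.2. With 2 libraries against 2 the exact two-sided permutation test cannot give a p below 0.333, so these ratios are given as values without a test.

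**Figure D2:**
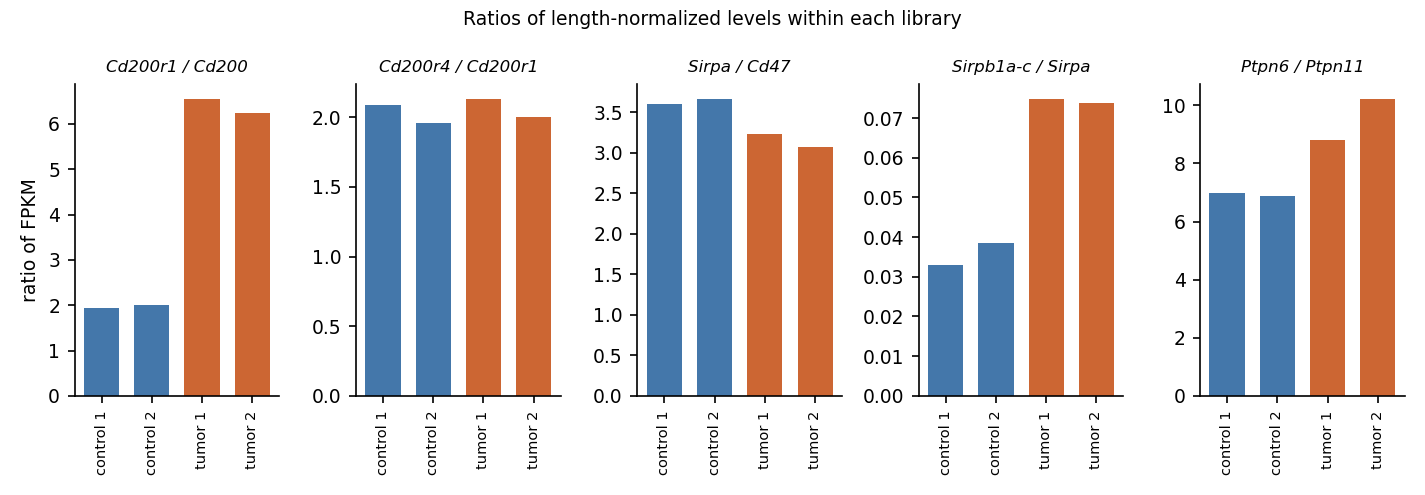
Ratio of FPKM values between the named genes in each library (bars, control blue, tumor orange, each axis from 0). Cd200r1 over Cd200 is 1.94 and 2.00 in the control and 6.54 and 6.24 in the tumor libraries, and the summed SIRPβ1 genes over Sirpa rise 2.08-fold, whereas Cd200r4 over Cd200r1 overlaps between groups.

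Pathway partners of the members were then counted in 5 lists, to be read against the 29.0% of all tested genes called higher and the 24.8% called lower. The split of each list depended on the scaling, and with scaling on the AM genes 68.8% of all tested genes were called, 89.4% of them as higher. In the CD200 list of 9 genes, 8 were tested, 4 were higher and 1, Cd200 itself, was lower, at a median log2 fold change of 0.20, while 7 were higher and 1 lower with scaling on the AM genes. Dok2, the adaptor of CD200R1, rose from 35.2 and 35.3 CPM to 130 and 129 CPM, a log2 difference of 1.88 ± 0.0527 (SE) at an adjusted p of 6.68e-22 by edgeR. Its partner Dok1, at 14.4 and 13.8 CPM in the control and 15.98 and 17.3 CPM in the tumor libraries, did not pass (adjusted p = 0.0760), but it passed with plain totals (0.31, adjusted p = 0.0242), with scaling on the AM genes (0.62, adjusted p = 2.57e-05) and among genes with at least 10 counts in every library (0.27, adjusted p = 0.0498). The lipid phosphatase gene Inpp5d rose by 0.37 and Rasa1 by 0.16 on the log2 scale. Rasa1 no longer passed without control replicate 2 (0.10, adjusted p = 0.271) or without tumor replicate 1 (0.07, adjusted p = 0.351).

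In the CD47 and SIRP list of 13 genes, 12 were tested, 6 were higher and 3 lower, with a median log2 fold change of 0.17. With scaling on the AM genes 10 were higher and none was lower. Thbs1, which encodes the CD47 ligand thrombospondin-1, was at 8.95 and 10.3 CPM in the control and 332 and 310 CPM in the tumor libraries, a log2 fold change of 5.07 ± 0.0597 (SE, edgeR adjusted p = 1.06e-30). Fyb, an adaptor that binds SKAP2 and is used by T cells, platelets and myeloid cells, went from 2.77 and 2.47 CPM to 90.6 and 92.2 CPM, and Skap2, which binds SIRPα, rose by 0.21 on the log2 scale. The soluble ligands of SIRPα were scarce. Sftpa1 had 30 and 29 counts in the control and 9 and 23 in the tumor libraries, a log2 fold change of -0.99 with an adjusted p of 0.0428 that was lost without control replicate 1 (-1.10, adjusted p = 0.119), control replicate 2 (-0.91, adjusted p = 0.201) or tumor replicate 1 (-0.55, adjusted p = 0.297) and kept without tumor replicate 2 (-1.71, adjusted p = 0.00614). It was also lost with plain totals (-0.92, adjusted p = 0.0592) and with scaling on the AM genes (-0.61, adjusted p = 0.190). Sftpd had at most 10 counts and was not tested. Qpctl, whose enzyme matures CD47 for SIRPα binding, was not called, at 17.6 and 15.1 CPM against 18.6 and 17.2 CPM, except with scaling on the AM genes (0.51, adjusted p = 0.000260).

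Of 5 genes listed for the uptake that this axis opposes and for CD47's integrin partners, 1 was higher and 2 were lower. Scaling on the AM genes gave 3 higher and 1 lower, and plain totals gave 3 higher and 2 lower. With plain totals 53.6% of all tested genes were called, 62.6% of them as higher. Calr, which encodes the uptake signal calreticulin, and Lrp1, which encodes its receptor, fell by 0.41 and 0.64 on the log2 scale. Lrp1 was lower also with scaling on the AM genes (-0.25, adjusted p = 5.37e-12), while Calr was then at -0.03 and not called (adjusted p = 0.277). Itgb3, an integrin subunit that pairs with CD47 and that platelets and mast cells carry, went from 13 and 11 counts to 1078 and 1116. The counts of Itgav, its partner subunit, were 576 and 499 in the control and 615 and 655 in the tumor libraries, and it was not called (adjusted p = 0.131) except with plain totals (0.21, adjusted p = 0.0274) and with scaling on the AM genes (0.53, adjusted p = 1.90e-06). A platelet list of 6 genes, written after these values were seen, had 2 tested genes. Itga2b went from 53 and 43 counts to 403 and 532, Pf4 from 55 and 48 to 14 and 9, Gp9 had 2 to 6 counts, and Ppbp, Gp6 and Gp1bb had at most 2 counts in any library.

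Signalling genes downstream of the receptors came last. Of 9 phosphatases and kinases of inhibitory motifs, 5 were higher and 2 lower, at a median log2 fold change of 0.07, while 8 were higher and none was lower with scaling on the AM genes. Among the kinases, Csk rose by 0.34 on the log2 scale, Fgr changed by -0.11 and lost its call without tumor replicate 2 (-0.08, adjusted p = 0.0900) and with plain totals (-0.05, adjusted p = 0.220). With scaling on the AM genes Fgr was higher by 0.27 (adjusted p = 2.35e-07). Lyn was at -0.01 (adjusted p = 0.841) under TMM and at 0.38 with scaling on the AM genes (adjusted p = 9.26e-12). Src, with 15 and 11 counts in the control and 32 and 34 in the tumor libraries, passed at 1.24 and lost its call without control replicate 1 (1.34, adjusted p = 0.0581) or control replicate 2 (1.13, adjusted p = 0.0842). Of the 5 genes listed for the DAP12 arm, Hcst (1.03) and Syk (0.07) were higher and none was lower. Hcst encodes an adaptor other than DAP12. All 5 genes were higher with scaling on the AM genes. Tyrobp itself was at 326 and 344 CPM in the control and 332 and 344 CPM in the tumor libraries, with a log2 fold change of 0.01 and a 95% interval of -0.05 to 0.08 under TMM. It was called higher with plain totals (0.08, adjusted p = 0.0269) and with scaling on the AM genes (0.40, adjusted p = 1.48e-11). Syk no longer passed without control replicate 1 (0.06, adjusted p = 0.0635), control replicate 2 (0.05, adjusted p = 0.0952) or tumor replicate 2 (0.06, adjusted p = 0.0674), or with no filter on low counts (0.05, adjusted p = 0.0824).

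**Figure D3:**
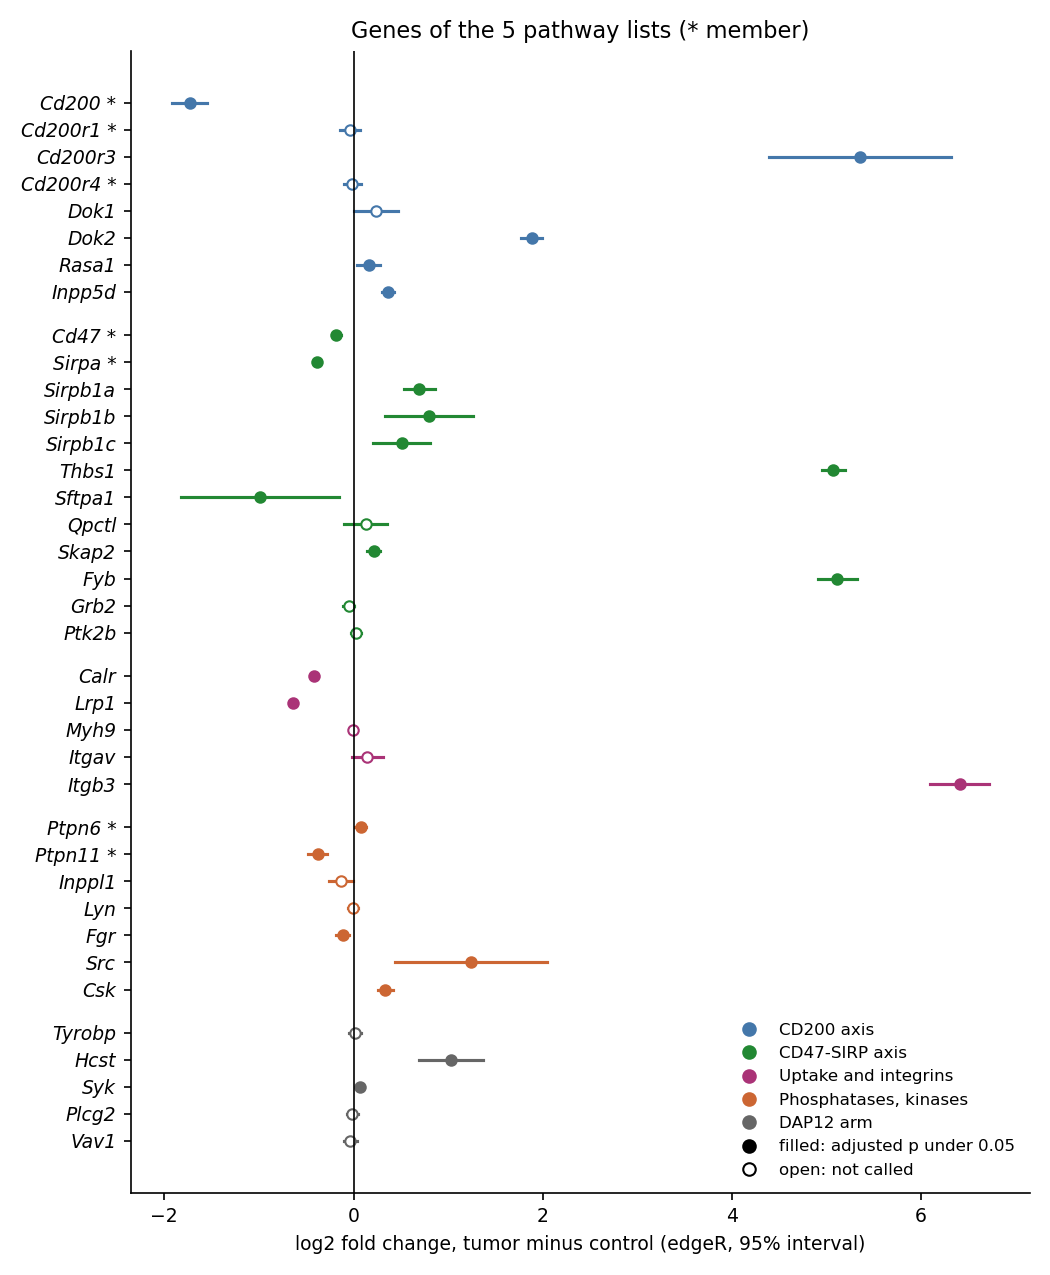
Log2 fold change, tumor minus control, of tested genes of the 5 lists (1 gene is not drawn), with 95% intervals from the edgeR fit, filled where the adjusted p was under 0.05 and open otherwise, and members marked by a star. Cd200 lies lowest at -1.73, while Cd200r3, Thbs1, Fyb and Itgb3 lie above 5.

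Scaling was the choice that changed the members most. With libraries scaled on the 14 AM genes, the median log2 fold change of all genes moved by 0.38, and 89.4% of calls were higher, against 53.9% under TMM. Under that scaling 68.8% of all tested genes were called, and 4 members were higher and 1 was lower, the latter being Cd200 at -1.35 (adjusted p = 8.39e-13). Relative to the AM genes, Sirpa and Ptpn11 were at -0.00351 and 0.00533, and Cd47, Cd200r1, Cd200r4 and Ptpn6 lay at 0.20, 0.35, 0.37 and 0.46. Cd200 was lower under both scalings.

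**Figure D4:**
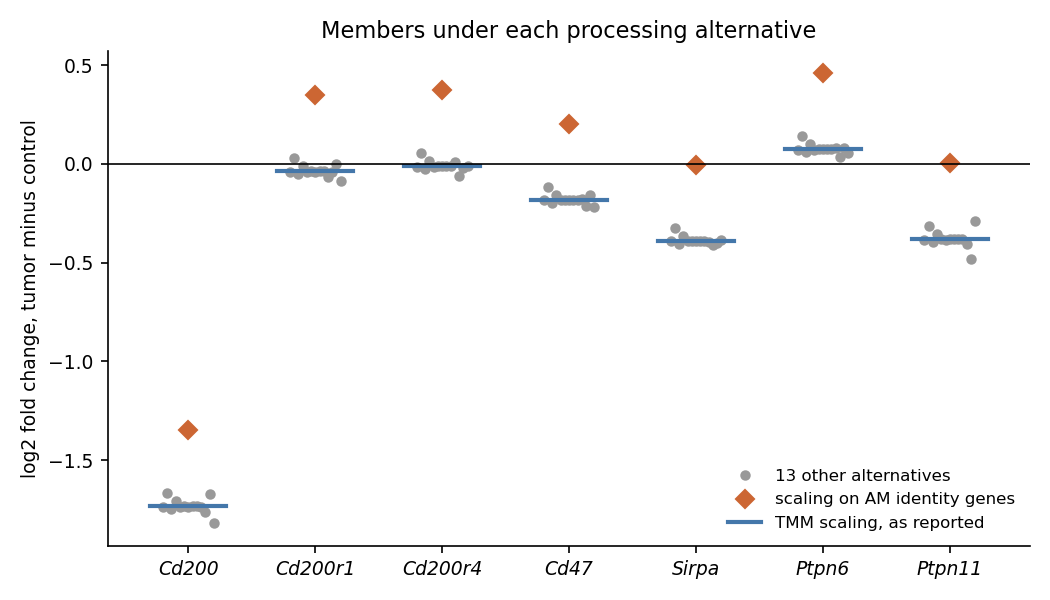
Log2 fold change, tumor minus control, of the 7 members under TMM scaling (blue line), with scaling on the AM genes (orange diamond) and under the other alternatives (grey points). Cd200 stays between -1.82 and -1.35, while scaling on the AM genes moves Cd47 from -0.18 to 0.20 and Sirpa from -0.39 to -0.00351.

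For likeness of pattern, genes with a mean of at least 1 CPM were ranked by the root mean square distance of their centred log2 CPM to Cd200 and to Sirpa over the 4 libraries, which mostly reflects an equal difference between groups. Nearest to Cd200 were Pdpn (0.0279), Scgb1a1 (0.0288), a secretory gene of club cells, and Icosl (0.0345), a ligand of T cell costimulation. Nearest to Sirpa were Mapre2 (0.00331), Zswim6 (0.00482) and Bfsp1 (0.00547). The distances are a description over 12609 genes and 4 libraries.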

How the data were processed

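Bulk RNA-seq counts of alveolar macrophages were analysed from 2 control and 2 tumor libraries, grouped by the titles in the labels. According to the methods of the study and the submitters' processing notes, the authors aligned paired-end reads with HISAT2 v2.0.5 and counted reads per gene with featureCounts, and the deposited counts are whole numbers that were not normalized. The build, strandedness and treatment of multiply mapped reads are not given in the sources used here. Of the deposited identifiers, 54409 were found in GENCODE M21 (GRCm38), and 98.3% of these had identical coordinates. Genes were kept by filterByExpr (minimum count 10), scaled by TMM and tested with edgeR 4.0.16 in R 4.3.3 (glmQLFit and glmQLFTest, group as the term, 2 residual degrees of freedom), and adjusted p-values (Benjamini-Hochberg, all 14256 tested genes) under 0.05 were called. Standard errors were obtained as log2 fold change over root F. Tests were two-sided. The FPKM values were computed here from counts and the deposited gene length. The common dispersion corresponded to a biological coefficient of variation of 0.0303. Within groups, counts differed beyond counting noise (chi-square of 1.81 and 2.30 per gene in the control and tumor pairs), so neither pair looked like 1 library deposited in duplicate, which does not show that they came from separate mice. The fit was tested on simulated data. The values of 1 gene of the lists are not reported here singly, though it is in the list counts. Members and lists were chosen with earlier results of these data known. Named were the members, genes of the 5 lists that passed or were scarce, examples of markers, and the 3 nearest genes by pattern. Others, Dok1, Qpctl, Itgav, Lyn, Tyrobp and the platelet list among them, were named after their values were seen. Alternatives were DESeq2 1.42.0 size factors or Wald test, limma-voom (limma 3.58.1), total counts, scaling on AM genes, other filters and thresholds, removal of the 20 most abundant genes, a replicate block, and leaving out each library.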

Additional observations from a re-analysis of the deposited data

How the results depend on the processing

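Of 98 values of the 7 members under 14 alternatives, 83 kept their direction and side of the threshold, 7 were weaker and 8 reversed. Of 431 values of the other 31 tested genes, 376 kept both, 25 were weaker, 11 stronger and 19 reversed. The number of members called stayed between 4 and 5 in the alternatives that kept every library. Their set and direction did not, as 4 were higher and 1 lower with scaling on the AM genes, against 1 higher and 4 lower under TMM. Scaling on the AM genes raised the median log2 fold change of all genes by 0.38, so genes slightly lower under TMM changed sign. This scaling reversed Cd200r1 (0.35), Cd200r4 (0.37), Cd47 (0.20), Ptpn11 (0.00533), Grb2 (0.33), Myh9 (0.38), Inppl1 (0.25), Lyn (0.38), Fgr (0.27), Plcg2 (0.37) and Vav1 (0.35). It moved the calls to 8 in the CD200 list and 5 in the DAP12 arm, against 5 and 2 under TMM, while the share of all tested genes called went from 53.8% to 68.8%. Total counts as library sizes reversed Cd200r1 (0.0290), Cd200r4 (0.0551), Grb2 (0.0139), Myh9 (0.0651), Lyn (0.0587), Plcg2 (0.0551) and Vav1 (0.0312), and called 5 genes of the uptake list in place of 3. At least 10 counts in every library reversed Cd200r4 (0.0139), Myh9 (0.0242), Lyn (0.0177) and Plcg2 (0.0141). With no filter Tyrobp was at -0.00188, and 1 gene of the DAP12 arm was called. Leaving out 1 library gave -0.0596 to 0.00988 for Cd200r4, -0.0355 to 0.0334 for Tyrobp and -0.0292 to 0.0165 for Myh9, with the sign turned without control replicate 1 for Cd200r4 and Tyrobp and without tumor replicate 2 for Tyrobp and Myh9. For the 2 genes of the DAP12 arm called under TMM, leaving out 1 library gave 0.0521 to 0.0731 for Syk and 0.809 to 1.23 for Hcst. The fits that leave out 1 library assume that the lone library varies like the other group. The cause of the changes between the alternatives was not tested. With no filter Rasa1 lost its call (0.14, adjusted p = 0.0504), and the Wald test of DESeq2 also lost the calls of Rasa1, Sirpb1b, Sftpa1 and Src. Over all genes, 31.3% were called with no filter, 41.1% by the Wald test of DESeq2 and 44.2% at an adjusted p under 0.01. Replicate numbers are shared by the groups. The deviations of same-numbered libraries correlated at -0.00278 over genes, which shows no shared deviation but cannot exclude pairing with 2 libraries per group. The replicate block gave 5 called members, 4 lower and 1 higher, and called 52.2% of all tested genes. The 2 libraries per group limit the precision, and the lists' scarce genes, Cd200r2 and Sftpd, were not testable at this depth.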
